A study of Rattus norvegicus with 4 samples.

Results

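The circRNAs described here come from host genes that each had 5 or more listed circRNAs in rat sciatic nerve. Among the 4942 circRNAs listed by the authors, 4207 had exactly 1 host gene. Counting them per Ensembl gene gave 134 of 2327 host genes with 5 or more, and these hosts held 897 circRNAs, or 18.2% of the list. They took 8960 of 35021 back-splice junction reads (25.6%). The choice used the number of listed circRNAs pooled over all libraries, so that number and the reads behind it are a description and not a finding. Just inside the limit were 51 hosts with exactly 5 circRNAs, 255 in all, with 2605 reads. Just outside were 96 hosts with exactly 4, 384 in all, with 2846 reads.

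Total RNA was sequenced from the sciatic nerve of Sprague-Dawley rats in postnatal week 6. In the crush group a stretch of 3 mm was crushed 2 times with a forceps, each for 15 s with 3 s between. In the sham group the nerve was exposed and left uncrushed. Nerve was taken 24 h after surgery in both groups, in the crush group as the 3 mm segment plus 1 mm at each end. There were 2 libraries per group, and values are given in the order crush 1, crush 2, sham 1, sham 2. Whether the nerves behind a pair of libraries were from different animals is not recorded in the labels. The p-values therefore measure only how these samples vary, and that variation may be technical. The nerve is a mixture of cell types, so a host with fewer reads may have fewer cells of a type or less RNA per cell, and these cannot be told apart.

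A circRNA is made when the spliceosome joins a downstream splice donor to an upstream splice acceptor of the same transcript, closing the exons between them into a ring. Only reads across that junction distinguish the ring from the linear transcript. A gene can use several donors and acceptors in this way, which is called alternative back-splicing, and its circRNAs then share an end or overlap. In what follows the upstream end is the acceptor side of the junction and the downstream end the donor side, read from the deposited coordinates and strand. Span is the genomic distance between the ends, introns included, and is not the length of the ring.

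The libraries held 8250, 9027, 9018 and 8726 junction reads, of which the 134 hosts took 24.2%, 25.1%, 27.2% and 25.8%. The crush libraries lay below both sham libraries, with a mean difference of -1.85 points and an exact permutation p = 0.33, the smallest that 2 against 2 can give. Members made up 19.4%, 20.2%, 20.2% and 20.5% of the circRNAs called in each library, a difference of -0.57 points between crush and sham (exact permutation p = 0.33). In each library 346, 408, 344 and 351 of the 897 were called, since a listed value was 0 or at least 2 reads. Over the 4 libraries 579 of the 897 (64.5%) were called in a single library and 85 (9.48%) in all 4. The files classed 789 of the 897 as exonic and 108 as intronic. Circular transcripts of the myelin gene Prx and of the Schwann cell factor Sox10 were not among those listed. Of 20 Schwann cell markers, 4 had any, with 4, 3, 3 and 26 reads summed.

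The hosts with most listed circRNAs encode proteins of several functions. Ash1l, a histone methyltransferase gene, had 16. Evi5, whose product acts on Rab GTPases, and Picalm, a clathrin assembly gene, had 14 each. Atrnl1, Dennd4a, Utrn and Vps13a had 13 each. Their products are an attractin-like membrane protein, a Rab exchange factor, the dystrophin relative utrophin and a lipid transfer protein. Rere, a transcriptional corepressor gene, and Agtpbp1, which encodes a tubulin deglutamylase, had 12 each. Pan3 of the PAN deadenylase, the kinase gene Stk39 and the GTPase regulator gene Arhgap10 had 11 each. Ttc3 and Herc1, both ubiquitin ligase genes, Ubn2 of a histone chaperone complex and the Ras regulator gene Nf1 had 10 each. Number of circRNAs and number of reads went different ways in some of these. Utrn had 40 reads over its 13 circRNAs, whereas Ttc3 had 556 over 10, and the 134 hosts ranged from 10 to 585 reads with a median of 38.

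Most members were built on ends that another circRNA of the same host also used. Of the 897, 711 (79.3%, exact Clopper-Pearson 95% interval 76.5 to 81.9) shared at least 1 end with another of their host, and they held 88.2% of the members' reads. An upstream end was shared by 495 (55.2%) and a downstream end by 421 (46.9%), with 205 (22.9%) sharing both. The 897 circRNAs used 587 distinct upstream and 648 distinct downstream ends. All circRNAs shared an end in 46 hosts. None did in 3 hosts, which included Ranbp17, a nuclear transport receptor gene, and Eif4g3, a translation initiation factor gene.

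The share grew with the number of circRNAs listed, which by itself gives more chances of a match, so these values are a description. It was 48.4% for hosts with 2, 61.8% for hosts with 3 and 71.6% for hosts with 4. In each of these groups more circRNAs shared the upstream than the downstream end. The values were 29.9% and 18.5% for hosts with 2, and 48.2% and 35.9% for hosts with 4. Among the 318 member circRNAs called in 2 or more libraries it was 67.3%. Leaving out the dominant circRNA of each host left 72.7%.

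**Figure D1:**
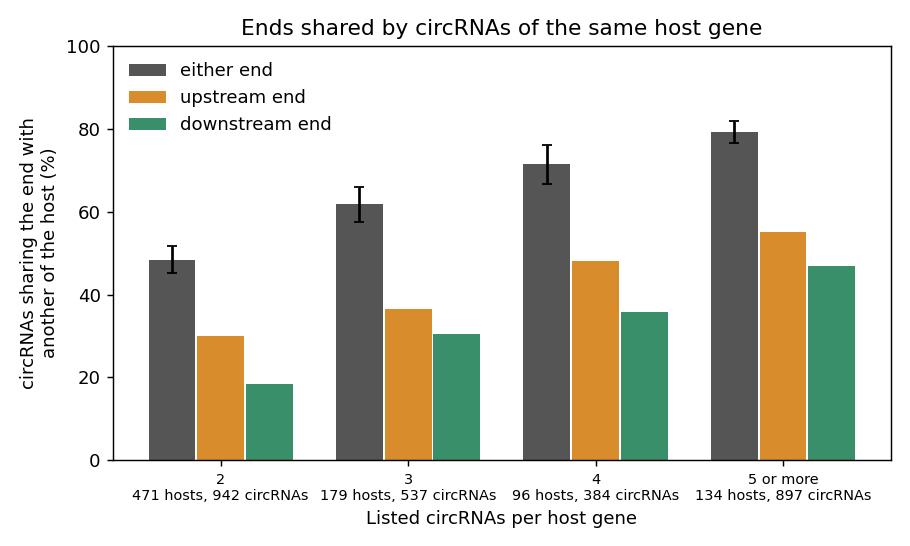
Bars give the percent of circRNAs that share an end with another circRNA of the same host, by the number of circRNAs listed for the host (whiskers: exact 95% binomial interval, for either end). The either-end bars rise from 48.4% with 2 listed to 79.3% with 5 or more, and the upstream bar stands above the downstream bar in each group.

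A few ends carried much of a host's output. Of the 587 upstream ends, 402 were used by 1 circRNA, 110 by 2 and 47 by 3, and the most used had 8. Of the 648 downstream ends, 476 were used by 1 and the most used had 6. In Picalm 7 of 14 circRNAs began at chromosome 1, 154405931, and they had 8, 18, 0 and 4 reads. In Evi5 6 of 14 began at chromosome 14, 2924636. In Agtpbp1 6 of 12 finished at chromosome 17, 5571375, with 19, 15, 2 and 10 reads. These 3 ends held 37.5%, 27.0% and 67.6% of the reads of their hosts, so heavy use of an end by many circRNAs did not always go with most of the reads.

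In some hosts with many reads a single end carried most of them in every library. Ttc3 (ENSRNOG00000001682) had 3 circRNAs from the upstream end at chromosome 11, 34612627, and they took 93.4%, 84.8%, 90.4% and 91.9% of its reads. Of 9 circRNAs of Mlip (ENSRNOG00000005934), whose product binds lamin in muscle cells, 5 shared the downstream end at chromosome 8, 84434784. These took 93.4%, 91.1%, 91.2% and 83.6%. Mkln1, a gene of a ubiquitin ligase complex, had 5 of 8 from chromosome 4, 58714647, with 100%, 90.7%, 95% and 95.9%. The 4 libraries thus lay within 10 points of each other for these ends. Gigyf2, a translational repressor gene, had 98.5% of its reads on the upstream end at chromosome 9, 94463647, and Mtmr3, a phosphoinositide phosphatase gene, 96.9% on that at chromosome 14, 84766181. In other hosts the reads were spread over more ends. The busiest end of Ash1l, at chromosome 2, 188269009, took 39.7%, 41.2%, 43.8% and 59.6%, and that of Atrnl1, at chromosome 1, 278580846, took 48.7%, 50%, 20% and 50%.

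Shared ends were also found again more often. Of upstream ends used by 2 or more circRNAs and seen after crush, 109 of 165 (66.1%) were seen in both crush libraries, and 107 of 158 (67.7%) in both sham libraries. Of those used by 1 circRNA, it was 43 of 253 (17.0%) and 36 of 213 (16.9%). An end with several circRNAs has more reads, and no test was made.

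Ttc3, Cers6, Vcan and Klhl21 show different arrangements. In Ttc3 most reads lay on a circRNA with a span of 1512 bases, and 3 circRNAs from a later upstream end, at 34631080, had 2 or 3 reads each. Cers6, a ceramide synthase gene, had 4 of 6 circRNAs from the upstream end at chromosome 3, 55157605, with spans from 8119 to 115531 bases. Vcan, the gene of the matrix proteoglycan versican, had all 5 circRNAs from chromosome 2, 18531203, with spans from 5408 to 38912 bases. Klhl21, a gene for a cullin adaptor, was the only host whose circRNAs were all intronic. Its 8 circRNAs shared the upstream end at chromosome 5, 169185563, and their other ends lay between 169183931 and 169183949, 2 to 4 bases apart. Counting ends within 5 bases as 1 left Klhl21 with a single circRNA. The same rule lowered the number in 5 hosts in all, and put Klhl21, Sdcbp and Morc3 under the limit of 5.

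**Figure D2:**
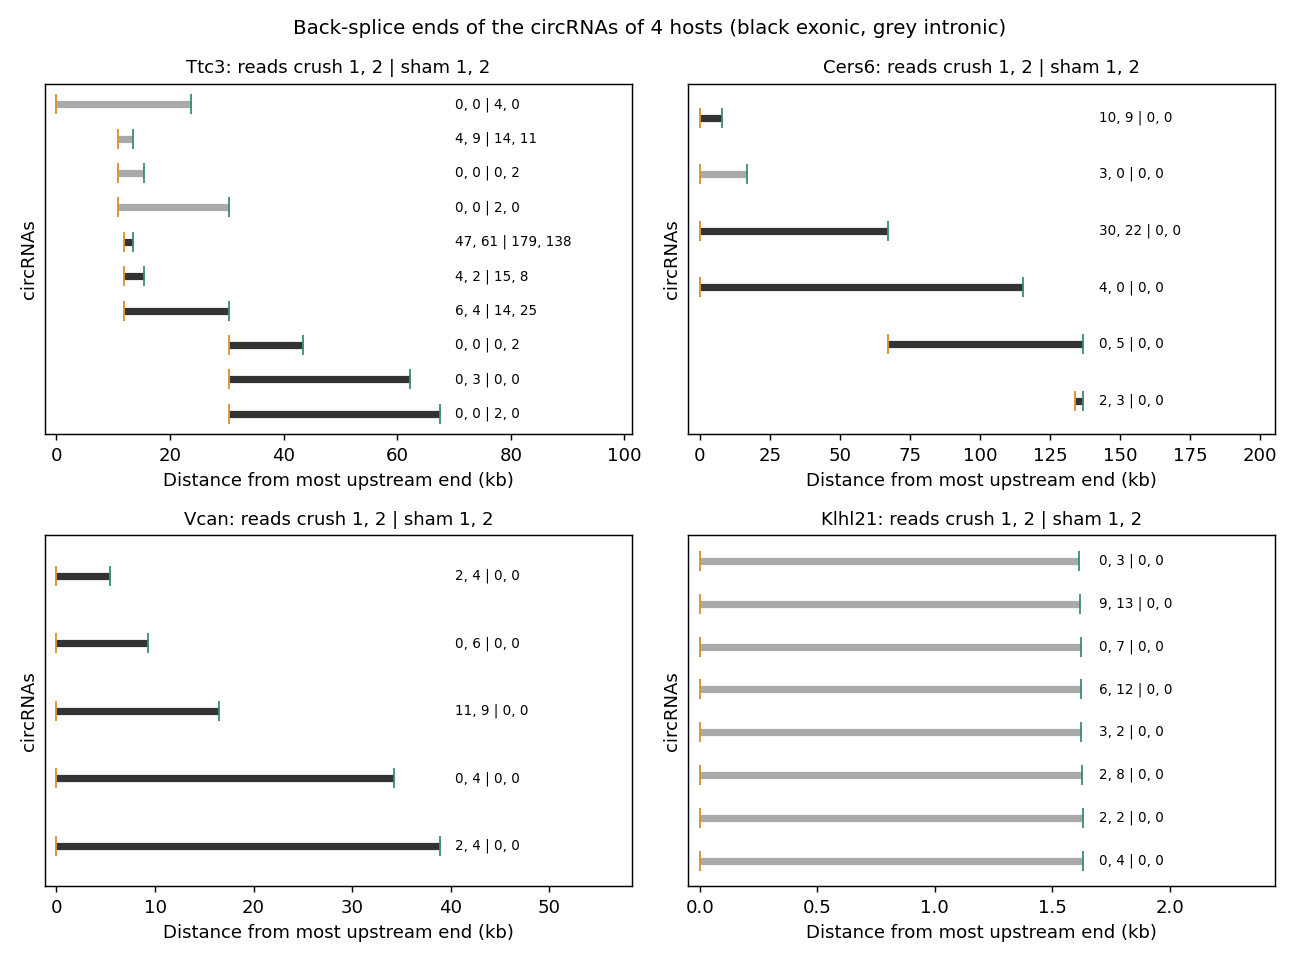
Each bar is a circRNA of Ttc3, Cers6, Vcan or Klhl21, drawn to scale from its upstream end (orange) to its downstream end (green) in kb from the most upstream end of the host, with junction reads in crush 1 and 2 and in sham 1 and 2 beside it. All 5 bars of Vcan and all 8 of Klhl21 start at a common upstream end, and the Klhl21 bars differ by a few bases at the other.

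Hosts differed in how far 1 circRNA stood out. The dominant circRNA, the one with most reads over the 4 libraries, held 15.8% to 94.2% of the reads of its host, with a median of 40.6%. It held over 50% in 49 of the 134 hosts, over 80% in 8 and under 25% in 14. Among the 46 hosts with 60 or more reads the median was 61.6% and 31 were over 50%. Hosts with few reads leave the dominant circRNA poorly defined, and in 8 hosts the top was tied. Of the 134 dominant circRNAs, 130 were exonic and 4 intronic.

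The dominant circRNA took part in the same network of ends. It shared an end with another circRNA of its host in 111 of 134 hosts, the upstream end in 93 and the downstream end in 62. Its span had a median of 12470 bases against 15620 for the other 763, and it was shorter than the median of the others in 80 of 134 hosts. Of the 763 others, 435 (57.0%) overlapped the dominant circRNA. Dominant circRNAs were called in both crush libraries in 80 of the 114 cases seen after crush (70.2%) and in both sham libraries in 76 of 110 (69.1%). For the others it was 93 of 467 (19.9%) and 81 of 428 (18.9%). The dominant circRNA was chosen on these reads, so its higher values are part of its definition.

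Arid1a, a subunit gene of the SWI/SNF chromatin remodeller, had the highest share, 94.2% (95% interval 90.1 to 97.0) on an exonic circRNA at chromosome 5, 151944769 to 151947717. Its reads were 64, 88, 0 and 44, so the circRNA was not called in sham 1 while sham 2 had 44. The dominant circRNA of Snx13, a sorting nexin gene, held 88.8% with 0, 36, 25 and 26 reads. That of Cnot6l, a deadenylase gene, held 88.3% with 39, 22, 13 and 9. Spidr, a gene of DNA repair, had 87.9% on chromosome 11, 89175425 to 89180448, with 47, 80, 74 and 82 reads, and its groups overlapped.

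At the other end Picalm had 16.2% (95% interval 8.95 to 26.2) on its dominant circRNA, Ash1l 19.8% (15.1 to 25.4) and Dennd4a 22.1% (13.9 to 32.3). In Ash1l the leading circRNA, at chromosome 2, 188301023 to 188309036, had 11, 13, 15 and 10 reads. The second, 188269009 to 188286112, had 12, 16, 6 and 13, so the pair was level. Pan3, with 274 reads, lay between, with 45.3% on a circRNA of 38, 42, 20 and 24 reads.

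**Figure D3:**
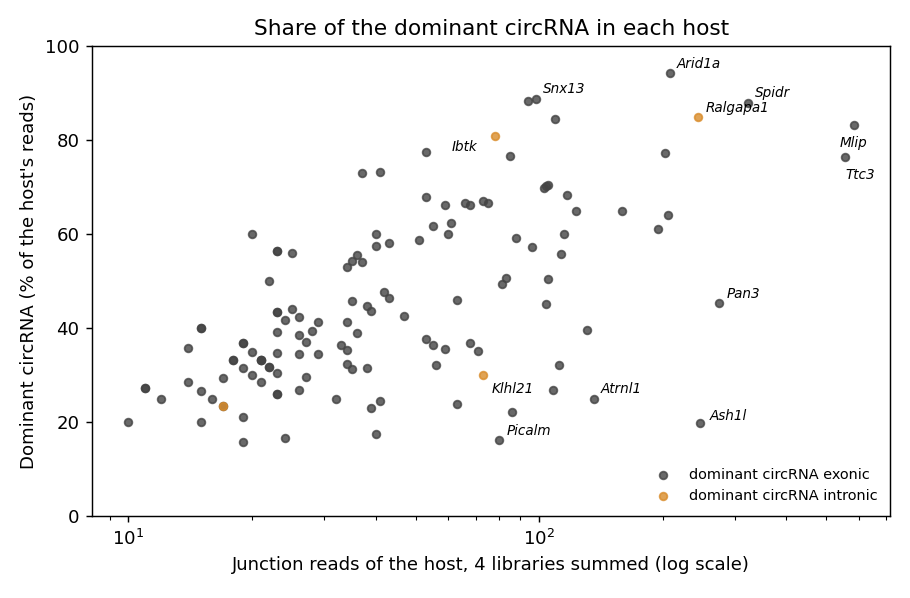
Each point is 1 of the 134 hosts, with its junction reads over the 4 libraries on a log axis and the percent of them on the dominant circRNA. Shares range from 15.8% to 94.2%, and Ash1l and Pan3 have over 200 reads with under 50% on the dominant circRNA.

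Of the 4 hosts with an intronic dominant circRNA, Ralgapa1 and Arhgap15 had it in a single library, Arhgap15 with 4 reads in crush 1. Ralgapa1 encodes a subunit of the Ral GTPase-activating complex. Its dominant circRNA, at chromosome 6, 76591791 to 76599536, had 0, 0, 207 and 0 reads, so all its reads were in sham 1. The host had 2, 10, 225 and 7 reads, and its log2 change of -4.00 ± 1.47 (SE) did not pass the host test described below (adjusted p = 0.150), and without sham replicate 1 it was -0.24. With this host, intronic circRNAs took 12.1% of members' reads in sham 1 against 5.2% to 7.52% in the other libraries. A listed 0 beside 20 or more reads in the other library of the group occurred in 7 of 67 cases among members, or 10.4%, and in 18 of 188 (9.57%) among all circRNAs listed. The 7 lay in Mtmr3, Kmt2e, Arid1a, Snx13, Ralgapa1 and, both ways, in Ibtk.

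Across libraries the leading circRNA of a host was often but not always the same. In the 31 hosts with 10 or more reads in every library, 18 (58.1%) had the same leading circRNA in all 4. It was the same in both crush libraries in 24 of 31 and in both sham libraries in 21. With 20 or more reads in every library it was the same in 9 of 11 hosts, and with 5 or more in 31 of 57. Ttc3 kept its leader at 77.0%, 77.2%, 77.8% and 74.2% of its reads, and Mlip at 86.8%, 81.0%, 86.8% and 79.2%. These libraries lay within 8 points of each other while the reads of both hosts differed over 2-fold between groups. Atrnl1 had 3 different leaders, and the share of its dominant circRNA was 33.3%, 31%, 8% and 20%. That of Kmt2e, a gene of a chromatin reader, was 61.1%, 60.7%, 0% and 75%.

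The share of the dominant circRNA lay higher after crush than in both sham libraries in 7 of the 31 hosts and lower in 5. Among all 47 hosts with 2 or more circRNAs and 10 reads in every library, 21.3% were above and 17% below, so the members were near the background. The signed difference between groups, in which rises and falls cancel, had a median of 0.9 points and ranged from -26.8 to 30.3. The gap between the libraries of 1 group, taken without sign, had a median of 9.9 points and reached 75. These medians are unlike measures and cannot be set against each other. The groups overlapped in 19 of the 31 hosts.

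**Figure D4:**
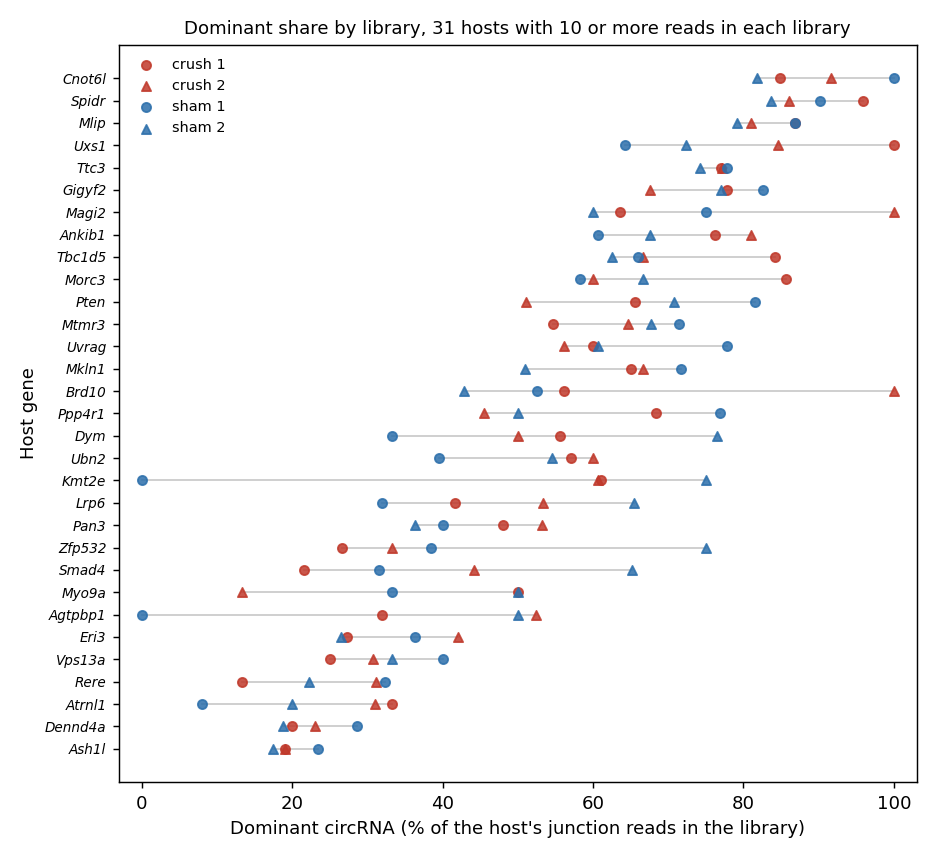
For each of the 31 hosts with 10 or more junction reads in every library, points give the percent of reads on the dominant circRNA in crush (red) and sham (blue), replicate 1 as circles and 2 as triangles. Crush and sham points are mixed in 19 hosts, and Ttc3 and Mlip have all 4 points within 8 points of each other.

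Summed over the 134 hosts, dominant circRNAs took 55.4%, 52.6%, 60.8% and 58.7% of the reads. The crush libraries differed by -5.77 points (54.0 ± 2.03 against 59.8 ± 1.46, SD, n = 2, exact permutation p = 0.33, the smallest possible). This value follows the libraries that choose the dominant circRNA. Chosen on the sham libraries alone the shares were 49.5%, 49.9%, 62.5% and 60.5%, and chosen on the crush libraries alone they were 58.8%, 54.4%, 48.4% and 53.2%, so the direction reversed. Chosen for each library on the other library of its group they were 49.6%, 47.6%, 49.6% and 50%. Without Ttc3, Mlip and Ralgapa1 they were 53.5%, 50.8%, 51.8% and 54.9%, and the groups overlapped.

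Of 125 member hosts tested, 6 passed, 5 with more junction reads after crush and Ttc3 with fewer, by edgeR's quasi-likelihood test on reads summed per host with adjusted p under 0.05 over all 434 hosts tested. The 5 were Cers6 and Dgkh, both genes of lipid enzymes, Klhl21, Vcan and Sdcbp, which encodes the adaptor protein syntenin. In all, 6 of 125 members (4.8%) passed against 10 of 434 hosts (2.3%). The 5 with more reads make 4% of members tested against 1.84% of all hosts tested, and the host that fell makes 0.8% against 0.461%. A host was tested with 5 or more reads in at least 2 libraries, which left 9 members untested. Each of the 5 had 0 listed reads in either sham library, so they were tested through the crush libraries alone. A host that enters that way had to differ, so their adjusted p and their share are given as a description and support nothing, and no fold can be fitted for them. The median log2 change was 0.07 for members and 0.11 for all tested, also with hosts at 0 in a group set to their lower bound.

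Cers6 (ENSRNOG00000024595) had 49, 39, 0 and 0 reads over 6 circRNAs. In SRPBM, the deposited count scaled to the library, it had 2.94 ± 0.863 after crush (SD, n = 2). Against a floor of 3 reads in each sham library this is at least 12.9-fold higher (adjusted p = 0.0358). The floor is set on the host sum. A host at 0 may hold single reads, which are never listed, in several circRNAs, or have a missed call. The folds of hosts given here hold only at that floor. Its dominant circRNA, at chromosome 3, 55157605 to 55224851, held 61.2% and 56.4% of its reads in the crush libraries. The second, from the same upstream end to 55165724, had 10, 9, 0 and 0 reads and did not pass the test of single circRNAs (adjusted p = 0.0570). Dgkh (ENSRNOG00000010065), a diacylglycerol kinase gene, had 34, 32, 0 and 0 reads from 7 circRNAs, at that floor higher by at least 9.63-fold (adjusted p = 0.0358). Of these, 24, 20, 0 and 0 were on a circRNA of 2405 bases at chromosome 15, 60892679 to 60895084. In both hosts the crush libraries agreed on the leader and sham had no called circRNA at all.

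Klhl21 had 22, 51, 0 and 0 reads, at the same floor at least 10.2-fold higher (adjusted p = 0.0445), all on intronic circRNAs whose ends differ by a few bases. Vcan (ENSRNOG00000029212), with its upstream end common to all 5 circRNAs, had 15, 27, 0 and 0 reads, at least 5.94-fold higher (adjusted p = 0.0490). Its dominant circRNA held 73.3% of the reads in crush 1 and 33.3% in crush 2, where all 5 were called. Sdcbp had 15, 25, 0 and 0 reads, at least 5.68-fold higher (adjusted p = 0.0490), of which 13, 11, 0 and 0 were on a circRNA at chromosome 5, 19490935 to 19492384. The downstream end of this circRNA was used by 4 of the 5. The second circRNA of Sdcbp, 19482814 to 19492384, had 0, 9, 0 and 0 reads, so crush 2 carried most of the smaller forms in both hosts.

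Ttc3 had 61, 79, 230 and 186 reads, or 4.57 ± 0.213 SRPBM after crush against 15.7 ± 1.5 after sham. Its log2 change was -1.36 ± 0.24 (SE, adjusted p = 0.0490), and both crush libraries lay below both sham libraries. Each of its 4 tested circRNAs was lower in both crush libraries, with log2 changes from -0.71 to -1.74, but none passed alone. The dominant circRNA (34612627 to 34614139) had 47, 61, 179 and 138 reads (log2 change -1.33 ± 0.33, adjusted p = 0.0638). Relative to the change of the host as a whole, which it largely sets, it moved by 0.01 on the log2 scale.

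Mlip came next among hosts with fewer reads after crush but did not pass. It had 76, 79, 204 and 226 reads, a log2 change of -1.26 ± 0.24 (adjusted p = 0.0522). Its dominant circRNA, 84434784 to 84461546, had 66, 64, 177 and 179, and relative to the change of the host, which it largely sets, it moved by 0.08 on the log2 scale. Of 16 skeletal muscle markers, Mlip among them, 4 had listed circRNAs. The other 3 had 0, 2, 3 and 7 reads, and Ckm, Acta1 and Ttn had none. The part of muscle in the change of Mlip was not tested.

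Other hosts near the threshold had smaller totals. Stk39 had 8, 9, 58 and 38 reads, a log2 change of -2.26 ± 0.46 (adjusted p = 0.0558), with 6 of its 11 circRNAs from the upstream end at chromosome 3, 54566332. That end had 6, 9, 49 and 28 reads. Prex2, whose product activates Rac, had 0, 0, 15 and 17 reads over 7 circRNAs (adjusted p = 0.0558), and its dominant circRNA held 25% of them. On the other side Upf2, a gene of nonsense-mediated decay, had 40, 46, 8 and 2 reads, a log2 change of 3.30 ± 0.63 (adjusted p = 0.0522), which was 4.33 without sham replicate 1 and 2.59 without sham replicate 2. Cdyl, with reads in every library, had 35, 49, 9 and 10, a log2 change of 2.33 ± 0.45 (host test, adjusted p = 0.0522). Mctp2, which encodes a membrane protein with C2 domains, had 25, 27, 0 and 3 (adjusted p = 0.0573). In each of these 4 hosts the groups did not overlap.

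**Figure D5:**
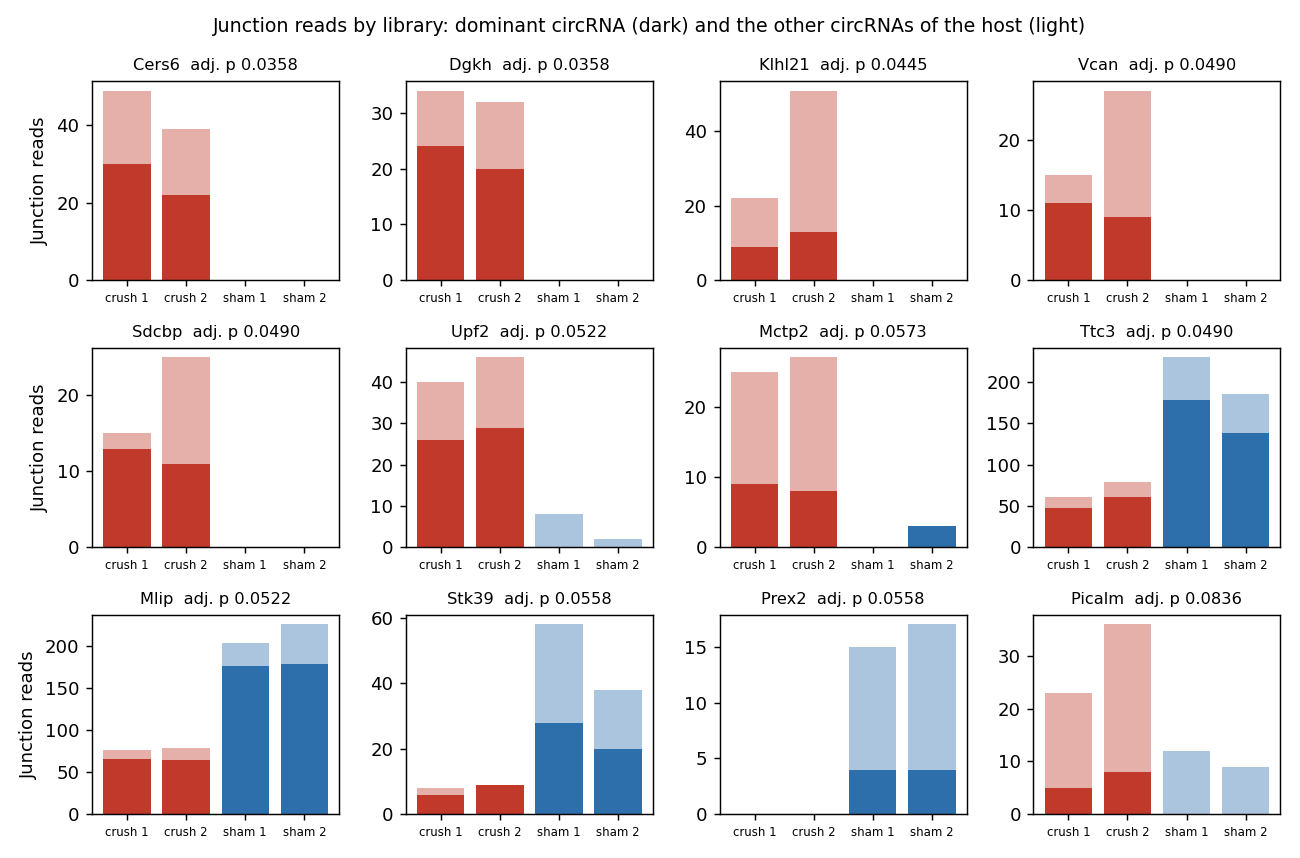
Stacked bars give junction reads of 12 hosts in each library, the dominant circRNA dark and the other circRNAs of the host light, with the adjusted p of the edgeR host test in each title. Cers6, Dgkh, Klhl21, Vcan and Sdcbp have no bar in sham, and in Ttc3 and Mlip the dark and light parts are both lower after crush.

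Of the 125 tested members, both crush libraries lay above both sham libraries in 38 (30.4%) and below in 41 (32.8%). Over all 434 hosts tested it was 28.3% and 30.2%. The counts of the host test depended on the libraries used, where leaving 1 out leaves its group with a lone library that is assumed to vary like the other group. Without crush replicate 1, 6 members passed, without crush replicate 2 it was 0 (23 at an unadjusted p under 0.05), without sham replicate 1 it was 8 and without sham replicate 2 it was 30. With either crush library left out, Ttc3 alone of the 6 hosts could still be tested, and it did not pass (adjusted p = 0.241 and 0.178).

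Gene lists by function held 8 members among chromatin regulators, 12 among ubiquitin ligases or deubiquitinases, 9 in membrane traffic and 5 of the cytoskeleton. They held 4 members among RNA-binding factors and 7 among lipid enzymes. The lists do not hold every member with a function, so their values stand for the listed genes only. A list of leukocyte and inflammation genes held 4 members, of which Picalm is also a membrane traffic gene. Of the chromatin regulators 7 of 8 had a positive log2 change, with a median of 1.20 and none passed. Over all hosts tested 53.5% were positive, with a median of 0.11, and over all 19 tested hosts on this list 15 were positive, with a median of 1.11. Those with most reads were Ash1l (58, 68, 64 and 57), Arid1a (68, 96, 0 and 44) and Kmt2e (36, 28, 11 and 40), and their groups overlapped except in Arid1a. Dot1l, a histone methyltransferase gene, had 11, 12, 0 and 2 reads (adjusted p = 0.0858). It met the read limit only through the crush libraries, so its adjusted p is a description.

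Of 11 ubiquitin genes tested, Klhl21 passed with more reads after crush, Ttc3 with fewer, and 9 did not pass. Their median log2 change was -0.35 with 5 positive, whereas all 20 tested hosts on the list had a median of 0.68 with 12 positive and the same 2 calls. Members off this list include the ubiquitin ligase genes Cop1 (log2 change 2.26) and Arih1 (0.94) and the deubiquitinase gene Mindy3 (-0.18). The negative median is therefore one of the listed members and not of all members with this function. Ankib1, a ubiquitin ligase gene, had 21, 21, 28 and 34 reads. Membrane traffic genes were positive in 6 of 9 (median 0.86) and none passed, against 10 of 16 over the whole list. Tbc1d5, the one with most reads, had 19, 27, 47 and 24 and a log2 change of -0.40. Picalm had 23, 36, 12 and 9 reads, a log2 change of 1.69 ± 0.48 (adjusted p = 0.0836). All 5 cytoskeleton genes had a negative log2 change (median -0.85) and none passed, as did 12 of 15 over the whole list. Arhgap10 had 7, 20, 27 and 50 reads and Utrn 4, 9, 11 and 16. All 4 listed RNA-binding factors were positive (median 1.51) and none passed, against 7 of 10 positive over the whole list (median 0.87). Upf2 and Cnot6l (46, 24, 13 and 11) were without overlap between groups. Members off this list went both ways, with log2 changes of -0.62 for Gigyf2, -0.48 for the RNA-binding gene Strbp and 0.65 for Pan3. The common sign is therefore one of the listed genes only.

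Of 6 lipid enzymes tested, Cers6 and Dgkh passed with more reads after crush and 4 did not pass. Over the whole list the same 2 of 9 passed, against 1.84% of all hosts. Both had 0 reads in either sham library and were tested through the crush libraries alone, so this share is a description and supports nothing. Mtmr3 had 95, 48, 21 and 31 reads, a log2 change of 1.68 ± 0.50 (adjusted p = 0.0836), from 1.15 without crush replicate 1 to 2.30 without crush replicate 2. Of the list of leukocyte and inflammation genes, Sdcbp, Dock8 (8, 12, 0 and 0), Picalm and Arhgap15 were all higher in both crush libraries. Of these Sdcbp passed. Sdcbp and Picalm encode an adaptor and a clathrin assembly protein, and no value here ties them to leukocytes. Over the whole list all 11 tested were higher and 3 passed, against 53.5% and 1.84% of all hosts tested. Of the 11, 9 were at 0 in both sham libraries, as were 3 of the 4 members. Such hosts were tested through the crush libraries alone and could only come out higher, so these counts are a description. The median log2 change of the 4 members was 1.60 with the 3 at 0 in sham set to their lower bound. Among 16 myeloid markers, none of them a member, 6 had circRNAs, with 38, 32, 0 and 2 reads, or 1.91 to 2.76 SRPBM after crush and 0 to 0.157 after sham. The part of entering leukocytes in the hosts with more reads after crush was not tested.

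At the level of single circRNAs, 115 members were tested, of which 9 passed with more reads after crush and 5 with fewer by edgeR's quasi-likelihood test with adjusted p under 0.05 over all 428 circRNAs tested. They make 7.83% and 4.35% of members tested against 7.48% and 4.44% of all circRNAs tested, so the members were close to the background. Of the 14, 13 had no listed reads in either library of 1 group. They met the limit of 5 reads in 2 libraries only through the group where they were high and so had to differ, and their calls are a description. The exception was Crebrf, a regulator gene of the CREB3 pathway, whose circRNA at chromosome 10, 16724062 to 16730140, had 6, 7, 40 and 39 reads and fell by 2.37 ± 0.42 on the log2 scale (adjusted p = 0.0454; 0.0726 and 0.064 without crush replicate 1 and 2). The count was 0 without crush replicate 1 (15 at an unadjusted p under 0.05), 1 without crush replicate 2, 21 without sham replicate 1 and 16 without sham replicate 2. With a lower limit of 2 reads in 2 libraries, no member host and no member circRNA passed (44 and 106 at an unadjusted p under 0.05).

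In Crebrf the share of the leader was lowest in crush 2. This circRNA had 100% and 95.1% of the host's reads in the sham libraries and 35.0% in crush 2, where 4 of the 5 circRNAs were called, whereas in crush 1 it had 6 of 8 reads. The downstream end shared by 4 of its 5 circRNAs had 8, 16, 40 and 41 reads. Summed over all 5, Crebrf had 8, 20, 40 and 41 reads and did not pass the host test (log2 change -1.33 ± 0.52, adjusted p = 0.172; -0.74 without crush replicate 1).

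Among the circRNAs that passed with more reads after crush, those of Upf2 (chromosome 17, 76245627 to 76265943, 26, 29, 0 and 0 reads), Cers6 and Dgkh had most reads. They were at least 7.96-fold, 7.68-fold and 6.46-fold higher. In Upf2 5 of 6 circRNAs began at 76265943, and the second of these, from 76260636, had 11, 12, 5 and 0 reads and did not pass (adjusted p = 0.222). The circRNAs of Sdcbp, Usp32, Mctp2, Dot1l and a pair from Picalm that also passed had 5 to 13 reads in each crush library. The Picalm pair shared the upstream end at chromosome 1, 154439745, and had 5, 8, 0 and 0 and 5, 6, 0 and 0 reads, while its circRNA at 154406807 to 154418787 had 2, 0, 4 and 5. The 5 with fewer reads were those of Crebrf, Ranbp17, Arhgap10, Ankib1 and Ubn2, the last 4 with 0 after crush and 5 to 7 reads per sham library.

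In 4 of the hosts with a circRNA past the test, the circRNA that passed was a minor one listed in a single group, while a leader on an end they share was called in all 4 libraries. In Ankib1 4 of 5 circRNAs began at chromosome 4, 27509136. The leader had 16, 17, 17 and 23 reads, and the one to 27537918 had 0, 0, 5 and 6. In Ubn2 the leader (66172555 to 66200637) had 8, 12, 15 and 18, and the one to 66232564 had 0, 0, 5 and 7. In Arhgap10 the leader had 7, 7, 17 and 16, and the one from 34249087 to 34312530 had 0, 0, 6 and 5. In Usp32, a deubiquitinase gene, the leader (72369079 to 72371838) had 18, 5, 18 and 9, and the one from 72365735 had 6, 8, 0 and 0. The minor circRNA was listed after sham in 3 of these hosts and after crush in Usp32, each time with few reads, and other hosts were not counted here.

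No host changed the relative use of its circRNAs by the test made for it. With edgeR's diffSpliceDGE on 52 hosts with at least 2 tested circRNAs, 32 of them members, none passed, against 6 of all and 5 of the members at an unadjusted p under 0.05 (11.5% and 15.6%). The smallest p-values belonged to Usp32 (0.00643), Ankib1 (0.00687), Ubn2 (0.0118) and Upf2 (0.0130), each with adjusted p = 0.135. At the level of single circRNAs none of 120 passed, 78 of them members, of which 5 (6.41%) had an unadjusted p under 0.05, against 5% of all 120. All 5 were at 0 in a whole group and were tested through the other group alone, so this share is a description too. Simulated data for this test held large shifts of a single size, so the smallest shift in use it could find was not measured.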

How the data were processed

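Total RNA libraries of rat sciatic nerve, 2 after crush and 2 after sham surgery, were analysed. Junction read counts per circRNA were deposited, per the file headers, beside SRPBM, a library-scaled signal made by the authors. Each deposited SRPBM signal equalled the count times 1 constant per library (0.0725, 0.0598, 0.0729 and 0.0786 for 1 read), so the tests used counts. Start, end and genomic length are as deposited, and their base convention is not stated. CASAVA 1.8, BWA, edgeR and the build Rnor_6.0 appear in the submitters' processing notes without the step of each, and no source used here gives the circRNA caller. No value of 1 was listed, so a 0 means that the caller reported no circRNA in that library. The 3 circRNAs with 2 host genes and the 732 intergenic ones stayed out.

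Ends were matched by exact position on 1 strand within a host. Counts were tested with edgeR 4.0.16 (quasi-likelihood, TMM scaling, two-sided, Benjamini-Hochberg at 0.05) over all hosts or circRNAs with at least 5 reads in at least 2 libraries, and use within hosts with diffSpliceDGE. These scripts were tested on simulated data. DESeq2 1.42.0, other scalings, filters, a replicate block and leaving out each library were alternatives. Lower bounds use a floor of 3 reads per library, and intervals and floors cover counting error only. They do not cover single reads spread over several circRNAs of a host, or calls missed in a library. Symbols were matched to the RefSeq gene table of GRCr8, 128 as current symbols and 5 by synonym, for names only, with 1 kept from the files.

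Members, gene lists and tests were chosen with earlier results of these data known. Named hosts are those with 10 or more circRNAs, the 10 with most reads, those past a test or with the 5 smallest p per direction without overlap, those holding a circRNA past its test, the 4 smallest p for use, the 3 highest and 3 lowest dominant shares among hosts with 60 or more reads, the 4 with the most used end, and the 3 with most reads in each list. Ibtk, Morc3, Arhgap15, Cdyl, Cop1, Arih1, Mindy3 and Strbp were named after their values were seen. Replicates of a group differed by more than sampling noise, with chi-square per degree of freedom of 2.76 for crush and 3.28 for sham.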

Additional observations from a re-analysis of the deposited data

Results flagged for a closer look

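A circRNA classed as intergenic, at chromosome 3, 28627079 to 28763518, had 2, 2, 0 and 0 reads, 4 in all, with an end in common with a circRNA of Arhgap15. It stood out because it has no host gene in the files, so the comparisons above do not use it, and its reads were in the crush libraries only. In all, 22 circRNAs without exactly 1 host gene overlapped a member on its strand and 15 shared an end with one, over 14 hosts and 115 reads.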

How the results depend on the processing

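The number of member hosts past the threshold, 6 as reported, was 25 with at least 10 reads in 2 libraries, 16 with no filter, 16 with the DESeq2 Wald test, 12 with exonic circRNAs only in hosts with 5 or more of them (which changes class and members together) and 0 with at least 2 reads in 2 libraries (44 at an unadjusted p under 0.05). Leaving out 1 library gave 0 to 30. The number of circRNAs, 14 as reported, was 7 with at least 10 reads (5 of them among the 14), 9 with the DESeq2 Wald test (4 among the 14), 0 with at least 2 reads (106 at an unadjusted p under 0.05) and 0 with exonic circRNAs in such hosts (28), and leaving out 1 library gave 0 to 21. With a replicate block it was 13 hosts and 0 circRNAs (16 at an unadjusted p under 0.05). The labels tie no libraries by number, and deviations of same-numbered libraries correlated at -0.044 over 434 hosts. The 6 hosts also passed with DESeq2 size factors, SRPBM totals, no filter, at least 10 reads, the DESeq2 Wald test and the block. With SRPBM totals the median log2 change moved from 0.11 to -0.30 for hosts and from 0.03 to -0.37 for circRNAs, and 5 of 9 hosts (55.6% against 83.3%) and 9 of 19 circRNAs (47.4% against 64.3%) were higher. Leaving out hosts with fewer than 5 circRNAs once ends within 5 bases were merged, added after seeing the data, left 4 hosts and 13 circRNAs past the threshold. The merged circRNAs themselves were not tested. Use within a host stayed at 0 under every setting run. Ends were shared by 67.3% of circRNAs called in 2 or more libraries against 79.3%, and the same leader was found in 9 hosts with 20 reads and 31 with 5. The difference in dominant share was 5.83 points with leaders chosen on crush libraries, -1.20 chosen on the other replicate, and, in alternatives added after seeing the data, -4.14 without Ralgapa1, -3.44 without Ttc3 and Mlip, and -1.15 without all 3. Hosts that reversed sign had log2 changes with SRPBM totals of -0.14 for Ash1l, -0.081 for Vps13a and -0.37 for Mkln1. Mkln1 was also -0.13 with at least 2 reads and -0.13 with no filter. Leaving out 1 library gave -0.33 to 1.72 for Kmt2e (lowest without sham replicate 1; it passed without sham replicate 2), -0.49 to 0.32 for Spidr, -0.57 to 0.35 for Rere and -2.31 to 0.77 for Snx13 (each positive only without crush replicate 1), -0.12 to 0.26 for Mkln1 (negative without either sham library) and -0.23 to 0.18 for Myo9a (positive without either crush library). As reported, none of these hosts passed the test, and the cause of each change was not tested. Of the other values for named hosts and circRNAs, 482 kept their direction and side of the threshold, 54 came to pass and 76 no longer passed.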

Other observations

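Member circRNAs spanned more of the genome than others with 1 host gene, with a median of 15060 bases against 7462 over 3310 circRNAs. Of 108 intronic members, 90 (83.3%) were called in a single library, against 489 of 789 exonic members (62.0%), and 2 were called in all 4. Among themselves 34.3% of intronic members shared an end. In 3 hosts, Sbf2, Akap10 and Ino80, circRNAs were listed on both strands. These values were looked at after the data were seen, and no test was made.

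Among circRNAs classed as intergenic that overlapped members, that at chromosome 5, 129413066 to 129457884, had 0, 0, 5 and 14 reads and shared an end with Faf1. That at chromosome 8, 84410405 to 84461546, had 2, 5, 9 and 0 and shared an end with 2 circRNAs of Mlip. That at chromosome 11, 34631080 to 34738852, had 2, 0, 0 and 10 and shared an end with 3 of Ttc3.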
